A study of Mus musculus with 10 samples.

Results

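Glycosyltransferases of the secretory pathway build the sugar chains of mucins, of other glycoproteins and of glycolipids. 70 such genes were examined in mouse intestinal organoids, of 19505 genes measured. They were chosen by symbol: all genes on the array named Galnt, Fut, St3gal, St6gal, St8sia, B3gnt, B3gal, B4gal or Gcnt followed by a number, t or nt, together with C1galt1. Each of the 70 was measured by 1 probe set, and all 70 matched a gene identifier in RefSeq. None was filtered out by level, but probe sets paired with several symbols were left out before the genes were chosen. St6gal2 was not analysed here.

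The organoids, epithelial cultures grown from intestine, carried the labels KO (5 arrays) and WT (5 arrays) for IκBα, the inhibitor that holds NF-kB in the cytoplasm. All 10 samples were untreated as far as the labels say, and all carry the mark P6, which was not interpreted. The labels name no strain, age or sex and do not say how the allele was deleted. They do not say either if replicates are different animals, different cultures or repeats of one, and the p-values therefore describe no more than the scatter of these arrays, which could be technical.

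Mucin-type glycosylation begins when a GalNAc transferase links N-acetylgalactosamine to a serine or threonine. C1galt1 then adds galactose to make core 1, enzymes of the Gcnt family branch it into core 2, and B3gnt6 makes core 3 in its place. B3gnt and B4galt enzymes extend the chains with alternating N-acetylglucosamine and galactose, and fucose, sialic acid or GalNAc end them. In the gut these ends carry the H and Lewis blood-group antigens and are contacts for bacteria and lectins. Several of the 70 enzymes work outside mucins, on N-glycans, glycolipids or the linker of proteoglycans.

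Levels are the deposited log2 values, and a change is the mean log2 level in KO minus that in WT. Nfkbia, which encodes IκBα, was at 4.72 to 5.34 in the 5 KO arrays and at 8.95 to 9.85 in the 5 WT arrays, a change of -4.13; whether its probes lie in the deleted part is not known here. The KO arrays also had less signal from the Y-linked genes Eif2s3y, Uty and Kdm5d (changes of -5.20, -4.47 and -2.42). Eif2s3y was at 3.74 to 4.27 in the 5 KO arrays and at 8.79 to 9.63 in the 5 WT arrays. This difference in Y-linked signal went with the KO label and with every result below, and its part in them was not tested. The medians of the negative control probe sets lay between 4.30 and 5.10 in the 10 arrays. The size of a change measured against a level in or near that range can be understated. It is called a lower bound below in that sense only, since the scatter of the arrays can also place it lower. For 10 members the mean level of both groups lay at or below the top of that range. For Nfkbia and the Y-linked genes the KO means lay at or below its top and the WT means above it. The 8 spike-in control RNAs had a median change of -0.52, the largest being 0.85 in size. Some called changes below were smaller in size than these, such as 0.29 for Galnt10. The part of the spike-in difference in them was not tested.

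Of the 70 genes 21 were higher and 15 lower in KO (limma, adjusted p under 0.05 over all 19572 named probe sets), and 34 did not pass. That is 51.4% of the members, where 26.7% of all named probe sets passed. Among all named probe sets 15.0% were higher and 11.7% lower. The median change of the members was 0.00, beside -0.01 for all named probe sets, because members moved both ways. Their median size of change, sign ignored, was 0.66 against 0.21. For 28 members, or 40.0%, the 5 KO levels and the 5 WT levels did not overlap, which held for 21.4% of all named probe sets. 9 members rose and 9 fell by over 2-fold, and 11.5% of all named probe sets passed with a change of that size.

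The changes were not of one kind within an enzyme family. The O-glycan starters Galnt6 and Galnt7 fell while Galnt3 and Galnt11 rose, the core 2 enzyme Gcnt4 fell while Gcnt1 rose, and the sialyltransferase St3gal6 fell while St6gal1, St3gal5 and St3gal1 rose. The secretor gene Fut2 rose by 3.87. These are differences in mRNA, and no glycan was measured here. In the enzyme classes below, of 5 to 17 genes each, 40.0% to 62.5% passed, beside 26.7% of all named probe sets. The counts of higher and lower genes in a class stand beside 15.0% and 11.7% of all named probe sets.

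**Figure D1:**
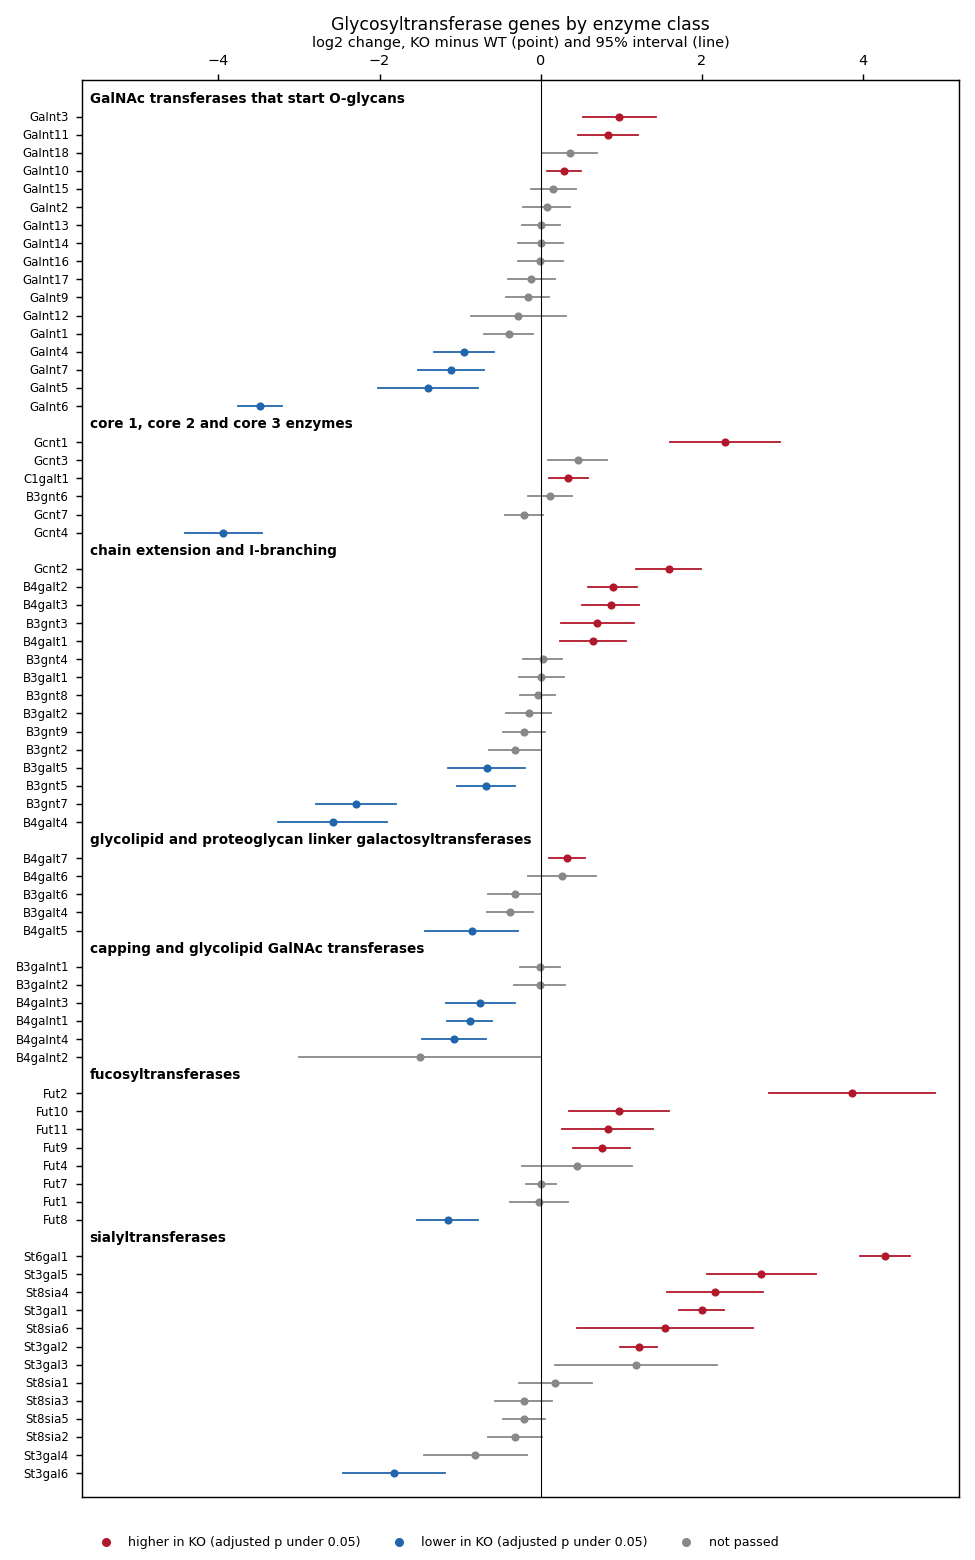
Log2 change (KO minus WT) of the 70 genes with its 95% interval from limma, grouped by enzyme class; red genes were higher and blue genes lower at an adjusted p under 0.05, and grey genes did not pass. Changes run from -3.94 for Gcnt4 to 4.27 for St6gal1, and most classes hold both red and blue genes.

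Of the 17 GalNAc transferases that start O-glycans, 3 were higher, 4 lower and 10 did not pass. The share that passed was 41.2%, beside 26.7% of all named probe sets. Galnt6, which among other proteins glycosylates fibronectin, fell most. Its level was 5.27, 5.54, 5.21, 5.56 and 5.14 in KO replicates 1 to 5 and 8.99, 8.65, 8.67, 8.98 and 8.87 in WT replicates 1 to 5. All KO arrays lay far below all WT arrays, close above the negative control range. The change was -3.49 (standard error 0.12, or 11.2-fold; limma, adjusted p = 2.39e-09) and is therefore a lower bound. Galnt7, an enzyme that prefers peptides already carrying GalNAc, stood at 7.87, 8.66, 8.56, 8.85 and 8.13 in KO against 9.34, 9.37, 9.55, 9.86 and 9.51 in WT. The groups did not overlap, and the change was -1.11 (standard error 0.19; limma, adjusted p = 0.000799).

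Galnt4, which also prefers glycopeptides, fell by 0.95 with no overlap (limma, adjusted p = 0.00134). Its gene overlaps Poc1b in RefSeq, and Poc1b changed by -0.46 and did not pass (limma, adjusted p = 0.113). Galnt5 fell by 1.40 (limma, adjusted p = 0.00304), from 4.69 to 6.22 in WT to 4.01 to 4.76 in KO, a level within or below the negative control range. Galnt3, the closest relative of Galnt6 and known for protecting the hormone FGF23, rose by 0.98 (limma, adjusted p = 0.00378). Its KO levels of 9.43 to 10.16 lay above all WT levels of 8.02 to 9.09. Galnt11, which can glycosylate Notch receptors, rose by 0.84 without overlap (limma, adjusted p = 0.00293).

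Galnt10 rose by only 0.29 (limma, adjusted p = 0.0462). Its call was lost when KO replicate 1, 3, 4 or 5, or any WT array, was left out (limma, adjusted p = 0.0501 to 0.110). The broadly expressed Galnt1 and Galnt2 did not pass, with changes of -0.40 (95% interval -0.70 to -0.09) and 0.07 (-0.22 to 0.37). Galnt1 passed if replicate 1 of either group was left out (change -0.46 each; limma, adjusted p = 0.0317 to 0.0344). Galnt12, known for its expression in the colon, had a change of -0.28 (95% interval -0.86 to 0.31). That change was -0.17 with KO replicate 1, -0.53 with WT replicate 4 and -0.13 with WT replicate 5 left out. The other 7 members of the class had changes between -0.16 and 0.36, and Galnt13 was within or below the negative control range in both groups.

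Among the 6 enzymes that build the O-glycan cores 2 rose, 1 fell and 3 did not pass, and the core 2 enzymes went opposite ways. Gcnt4, a core 2 branching enzyme, stood at 5.31, 5.89, 5.45, 6.19 and 5.86 in KO replicates 1 to 5 and at 9.23, 9.89, 9.34, 10.26 and 9.68 in WT. No KO array came near a WT array, and the change of -3.94 (standard error 0.22, or 15.4-fold) was the lowest of the 70 (limma, adjusted p = 9.95e-08). Gcnt1, the core 2 enzyme known from leukocytes and selectin ligands, stood at 7.42, 8.91, 7.82, 7.52 and 6.90 in KO and at 5.01, 5.42, 5.48, 5.38 and 5.84 in WT. KO replicate 2 was highest, yet the lowest KO array was above the highest WT array. The change was 2.29 (standard error 0.31; limma, adjusted p = 0.000165), measured against a WT level close above the negative controls.

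Gcnt3, the mucus-type enzyme that makes core 2, core 4 and I branches, was at 10.39 to 11.30 in KO and at 10.06 to 10.49 in WT. Its change of 0.46 (95% interval 0.10 to 0.82) did not pass (limma, adjusted p = 0.0614), but it passed without KO replicate 3 (change 0.56, limma, adjusted p = 0.0254) or KO replicate 5 (0.53, limma, adjusted p = 0.0493). C1galt1, the core 1 synthase, rose by 0.34 with no overlap (limma, adjusted p = 0.0381). Its call was lost with KO replicate 3, 4 or 5, or WT replicate 2, 3 or 4, left out (limma, adjusted p = 0.0514 to 0.0849), and after cyclic loess between arrays (0.32; limma, adjusted p = 0.0516). If KO replicate 4, or WT replicate 2, 3 or 4, was omitted, Gcnt1 was thus the only enzyme of the class to rise. The core 3 synthase B3gnt6 lay within the negative control range in both groups, and its change of 0.12 did not pass, nor did that of Gcnt7 (-0.21).

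**Figure D2:**
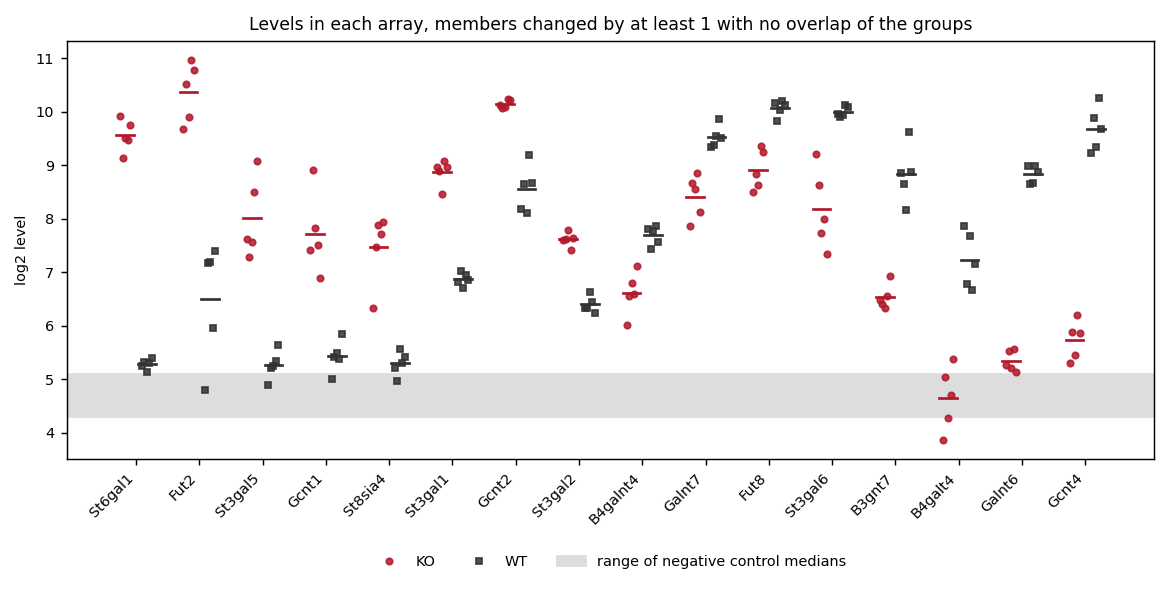
Log2 levels of the 16 genes that passed with a change of at least 1 and no overlap, 1 point per array (red circles KO, dark squares WT), with a line at each group's mean and a grey band for the negative control medians (4.30 to 5.10). The 8 genes on the left are higher in all 5 KO arrays and the 8 on the right higher in all 5 WT arrays, and several of the low groups sit in or just above the band.

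Of the 15 enzymes that extend chains or branch them, 5 rose, 4 fell and 6 did not pass. Gcnt2, which turns linear chains into I-antigen branches, stood at 10.12, 10.07, 10.09, 10.25 and 10.23 in KO and at 8.19, 8.65, 8.10, 9.19 and 8.67 in WT. The KO arrays were almost alike and all above WT, with a change of 1.59 and a standard error of 0.18 (limma, adjusted p = 4.60e-05). The galactosyltransferases that make N-acetyllactosamine rose together with it: B4galt2 by 0.90, B4galt3 by 0.87 and B4galt1 by 0.65 (limma, adjusted p at most 0.0231). The groups did not overlap for B4galt2 and B4galt3. B4galt1 overlapped, and it lost its call if KO replicate 4 or 5, or WT replicate 2, was omitted (limma, adjusted p = 0.0529 to 0.0603). B3gnt3, which extends core 1, rose by 0.71 (limma, adjusted p = 0.0262), but not with KO replicate 2, 3 or 4, or WT replicate 1, 2 or 3, left out (limma, adjusted p = 0.0522 to 0.0670). Without KO replicate 4 or WT replicate 2 only 3 genes of the class rose.

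B4galt4 and B3gnt7, enzymes known for extending sulfated chains such as keratan sulfate, went the other way. B4galt4 stood at 3.87, 5.04, 4.28, 4.70 and 5.37 in KO and at 7.87, 6.78, 7.68, 6.67 and 7.16 in WT. 4 of the 5 KO levels lay within or below the negative control range, so the change of -2.58 (standard error 0.31; limma, adjusted p = 6.08e-05) is a lower bound. B3gnt7 stood at 6.48, 6.41, 6.33, 6.56 and 6.93 in KO and at 8.86, 8.65, 8.17, 9.62 and 8.87 in WT. No array of one group reached the other, and the change was -2.30 (standard error 0.23; limma, adjusted p = 1.32e-05).

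B3gnt5, which starts the lacto series of glycolipids, fell by 0.68 to a KO level within the negative control range (limma, adjusted p = 0.00944). B3galt5, which makes the type 1 chains that Lewis a and b are built on, had a change of -0.67 (limma, adjusted p = 0.0410), but both group means, 4.34 and 5.01, were in that range. Its call was lost if KO replicate 1, 3, 4 or 5, or WT replicate 2, 4 or 5, was omitted (limma, adjusted p = 0.0563 to 0.0929), and after cyclic loess (limma, adjusted p = 0.0502). B3gnt2, the main poly-N-acetyllactosamine enzyme, changed by -0.32 and did not pass (95% interval -0.64 to -0.00). B3gnt4, B3gnt8, B3gnt9, B3galt1 and B3galt2 had changes between -0.21 and 0.02 and did not pass.

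5 further galactosyltransferases act on glycolipids or on the linker between proteoglycans and their chains. The lactosylceramide synthase B4galt5 fell by 0.86 (limma, adjusted p = 0.0305), and its relative B4galt6 had a change of 0.26 (95% interval -0.16 to 0.68) and did not pass, at 0.17 with KO replicate 3 and 0.40 with WT replicate 1 left out. B4galt5 no longer passed with KO replicate 2, 3 or 4, or WT replicate 1 or 4, left out (limma, adjusted p = 0.0623 to 0.0704). The linker enzyme B4galt7 rose by 0.33 with no overlap (limma, adjusted p = 0.0312). That call was lost if KO replicate 2, 4 or 5, or WT replicate 1, 2 or 5, was omitted (limma, adjusted p = 0.0600 to 0.0784), and after centring each array on its 75th percentile (0.30; limma, adjusted p = 0.0671). The other linker enzyme, B3galt6, changed by -0.32 (limma, adjusted p = 0.146). B3galt4, a ganglioside GM1 synthase, changed by -0.38 (limma, adjusted p = 0.0511), and passed without WT replicate 1 (-0.49; limma, adjusted p = 0.00362), after cyclic loess (-0.40; limma, adjusted p = 0.0423) and after centring on the 75th percentile (-0.41; limma, adjusted p = 0.0432).

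The transferases that add GalNAc to the end of a chain or to a glycolipid showed falls alone: of 6, 3 fell, none rose and 3 did not pass. B4galnt4, which makes the LacdiNAc group, stood at 6.02, 6.56, 6.79, 6.59 and 7.11 in KO and at 7.81, 7.43, 7.76, 7.86 and 7.57 in WT. All KO arrays were below WT, with a change of -1.07 and a standard error of 0.18 (limma, adjusted p = 0.000857). B4galnt3, which makes the same group, fell by 0.75 (limma, adjusted p = 0.0139), and the ganglioside GM2 synthase B4galnt1 by a change of -0.88 (limma, adjusted p = 0.000259), both with no overlap. B4galnt1 overlaps Slc26a10 in RefSeq, which had a change of -0.06 and did not pass. B4galnt2 makes the Sda blood group antigen of the gut. It stood at 8.65, 10.40, 7.26, 11.47 and 11.11 in KO and at 11.79, 10.89, 11.43, 11.40 and 10.89 in WT. KO replicates 1, 2 and 3 were below all WT arrays and KO replicates 4 and 5 lay within the WT range, so that the change of -1.50 (95% interval -3.00 to -0.00) did not pass (limma, adjusted p = 0.136). With KO replicate 3 left out it was -0.87. B3galnt1 and B3galnt2 each had a change of -0.01.

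Fut2 changed most among the 8 fucosyltransferases. It encodes the secretor enzyme, which adds α1,2-linked fucose to make the H antigen on mucins and epithelial glycans of the gut. Its level was 9.68, 10.53, 9.90, 10.97 and 10.78 in KO replicates 1 to 5 and 4.80, 7.17, 7.19, 5.96 and 7.40 in WT replicates 1 to 5. WT arrays spread widely, with replicate 1 within the negative control range, but the lowest KO array was above the highest WT array. The change was 3.87 (standard error 0.47, or 14.6-fold; limma, adjusted p = 7.14e-05). Fut1, the other H enzyme, did not pass, with a change of -0.02 (95% interval -0.38 to 0.34), though only 3 protein-coding genes lie between Fut1 and Fut2 in RefSeq.

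Fut8, which adds the core fucose of N-glycans, went down. It stood at 8.49, 8.84, 8.64, 9.37 and 9.24 in KO and at 10.16, 9.83, 10.04, 10.20 and 10.13 in WT. The groups did not overlap, and the change was -1.16 (standard error 0.17; limma, adjusted p = 0.000310). Fut9, which makes Lewis x, rose by 0.76 with no overlap (limma, adjusted p = 0.00391). The related Fut4 was at 5.43 to 6.36 in KO, and in WT at 6.73 in replicate 1 and 5.04 to 5.34 in the others. Its change of 0.45 did not pass (limma, adjusted p = 0.334) but was 0.77 without WT replicate 1 (limma, adjusted p = 0.0101). The leukocyte enzyme Fut7 had a change of 0.01.

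Fut10 rose by 0.97 (limma, adjusted p = 0.0245) and Fut11 by 0.83 (limma, adjusted p = 0.0319), each with overlapping groups. The WT mean of Fut10, 4.85, lay within the negative control range, so the size of its change can be understated. Its 95% interval was 0.35 to 1.59. Fut10 lost its call if KO replicate 3 or 5, or WT replicate 5, was omitted (limma, adjusted p = 0.0538 to 0.0626). Fut11 lost it with KO replicate 1, 4 or 5, or WT replicate 2, 4 or 5, left out (limma, adjusted p = 0.0687 to 0.0792). In all 4 fucosyltransferases rose, 1 fell and 3 did not pass, and only 2 rose if replicate 5 of either group was omitted.

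Of the 13 sialyltransferases 6 rose, 1 fell and 6 did not pass. The median change was 1.18, that of St3gal3, which did not pass, and it was 0.69 with WT replicate 4 left out. St6gal1, which puts α2,6-linked sialic acid on the galactose of N-glycans, showed the highest change of the 70. Its level was 9.93, 9.13, 9.51, 9.48 and 9.75 in KO replicates 1 to 5 and 5.26, 5.33, 5.14, 5.31 and 5.39 in WT replicates 1 to 5. Each group was tight, and WT lay just above the negative controls. The change of 4.27 (standard error 0.14, or 19.3-fold; limma, adjusted p = 1.47e-09) is therefore a lower bound.

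3 enzymes that put sialic acid in α2,3 linkage rose without overlap. St3gal1, which caps core 1 O-glycans, stood at 8.96, 8.89, 8.46, 9.08 and 8.97 in KO and at 6.82, 7.02, 6.71, 6.95 and 6.85 in WT, a change of 1.72 to 2.28 by its 95% interval (standard error 0.13; limma, adjusted p = 2.82e-07). St3gal2, which caps core 1 and gangliosides, stood at 7.60, 7.63, 7.78, 7.42 and 7.64 in KO and at 6.34, 6.34, 6.62, 6.45 and 6.24 in WT, a change of 1.22 (standard error 0.11; limma, adjusted p = 4.56e-06). St3gal5 is the GM3 synthase and opens the way to most gangliosides. It stood at 7.63, 7.28, 7.57, 8.50 and 9.08 in KO and at 4.90, 5.22, 5.25, 5.34 and 5.64 in WT. All KO arrays were above WT, by a change of 2.74 (standard error 0.31; limma, adjusted p = 3.69e-05). The WT levels of St3gal5 lay within or close above the negative control range, so this change is a lower bound.

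The members that sialylate N-acetyllactosamine chains did not share one direction. St3gal6 stood at 9.21, 8.62, 7.74, 7.99 and 7.34 in KO and at 9.95, 9.91, 9.94, 10.12 and 10.09 in WT. The WT arrays were nearly equal and all above KO, and the change was -1.82 (standard error 0.29; limma, adjusted p = 0.000568). In RefSeq its gene overlaps Dcbld2, which had a change of 0.66 and did not pass (limma, adjusted p = 0.0606). St3gal4 was at 9.60 to 10.48 in KO and at 10.11 to 11.67 in WT; its change of -0.81 did not pass (limma, adjusted p = 0.0616). It passed at -0.96 if KO replicate 1, or WT replicate 1 or 3, was omitted (limma, adjusted p = 0.0354 to 0.0372), so that 2 enzymes of the class were then lower. St3gal3 was at 8.52 to 8.92 in KO and, in WT, at 7.33, 7.85, 8.02, 5.50 and 8.67. Its change of 1.18 did not pass (limma, adjusted p = 0.0823). Without WT replicate 4, the low array, the change was 0.69 and passed (limma, adjusted p = 0.0456), and without WT replicate 5 it was 1.48 and passed (limma, adjusted p = 0.0301).

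Of the α2,8-sialyltransferases, which add sialic acid to sialic acid, St8sia4 and St8sia6 rose. St8sia4, a polysialic acid synthase, stood at 6.33, 7.47, 7.88, 7.71 and 7.95 in KO and at 5.22, 4.98, 5.56, 5.30 and 5.43 in WT. KO replicate 1 was the lowest of its group but still above all WT arrays, and the change was 2.17 (standard error 0.27; limma, adjusted p = 8.88e-05). Its WT levels lay within or close above the negative control range, so this change is a lower bound. St8sia6, which acts on O-glycans, stood at 6.84, 7.42, 7.34, 4.90 and 4.89 in KO and at 4.43, 4.91, 4.45, 4.84 and 5.06 in WT. Only KO replicates 1 to 3 were above WT, while KO replicates 4 and 5 lay within the WT range. All 5 WT levels lay within the negative control range. The change was 1.54 (standard error 0.50; limma, adjusted p = 0.0395), and the call was lost when KO replicate 1, 2 or 3, or any WT array, was left out (limma, adjusted p = 0.0580 to 0.0872). St8sia1, St8sia2, St8sia3 and St8sia5, known mainly from the nervous system, had mean levels at or below the top of the negative control range in both groups and did not pass.

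**Figure D3:**
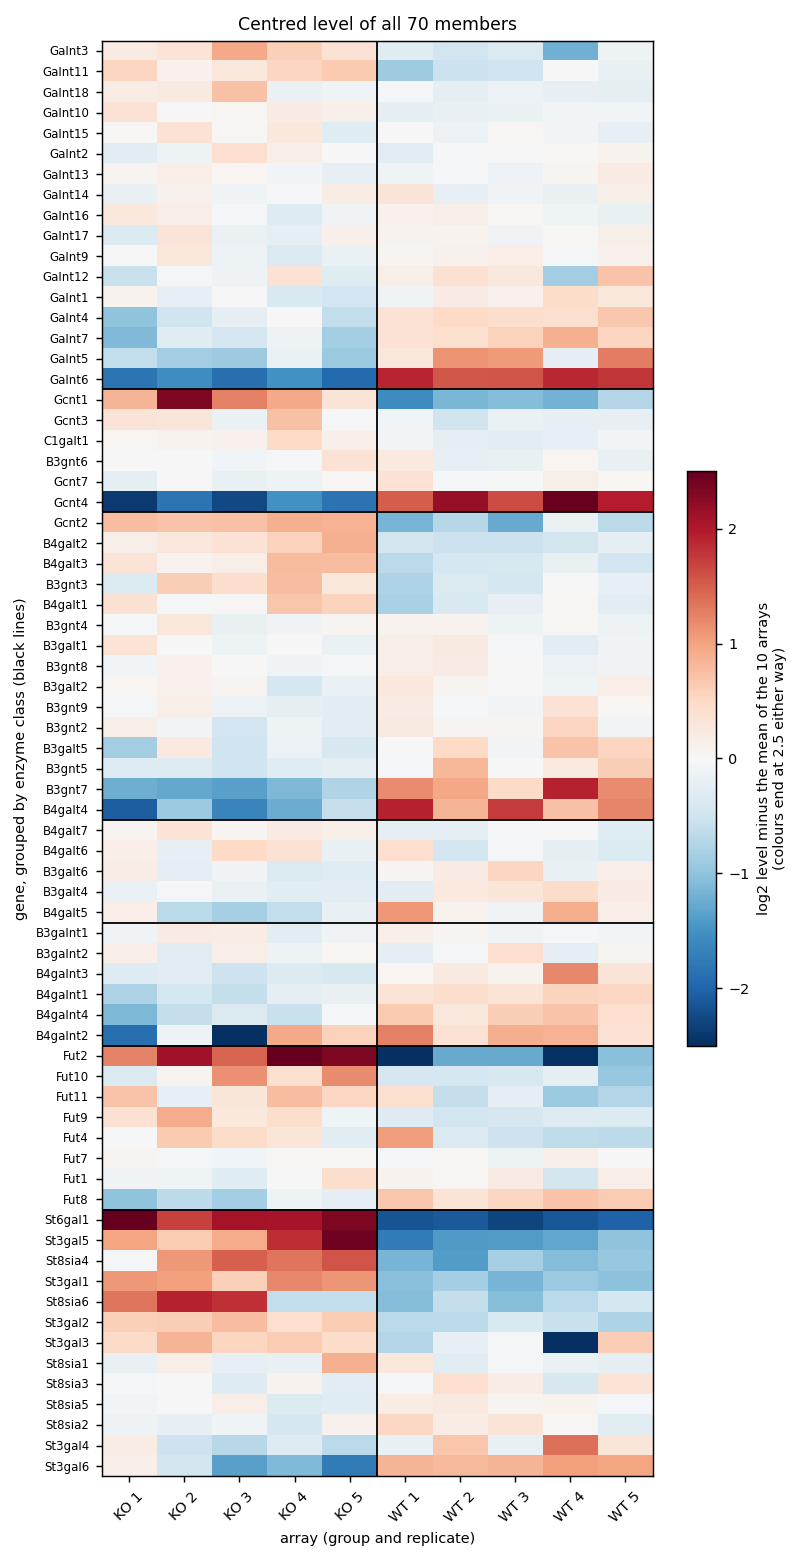
Log2 level of each of the 70 genes minus its mean over the 10 arrays, with arrays in columns (KO left, WT right) and genes in rows by enzyme class, red above and blue below the mean. Galnt6, Gcnt4, St6gal1 and St3gal1 split evenly between the groups, whereas St8sia6 and B4galnt2 differ among KO arrays, and Fut4 and St3gal3 each have 1 WT array apart from the others.

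Start sites were examined in the 250 bases before each gene's start in RefSeq (build GRCm38.p6), for 52 of the 70 genes, both strands, with matches to different motifs free to overlap. Fut2 is among those without an entry. The NF-kB consensus was found in 3.90% of 32851 windows of all genes. Among the members it was found in 0 of 23 windows of genes that rose, 1 of 21 of genes that fell and 0 of 28 of genes that did not pass. TGANTCA, a loose form of the AP-1 site that allows any middle base, was found in 6.75% of all windows. It was in 1, 1 and 2 of the member windows in the same order. GGAATG, the TEAD site, was in 12.6% of all windows and in 4, 3 and 4. TTTATNG, a CDX site, was in 9.81% and in 1, 1 and 1. A match is only a string of letters, not a bound site, and the probe positions were not used. The windows of changed members that hold an NF-kB or AP-1 match are shown, 5′ to 3′ on the strand of the gene, with the match in capitals: AP-1 in the windows of St6gal1 (chr16:23290220-23290469, plus strand, the third of its 3 starts) and Gcnt4 (chr13:96924094-96924343, plus strand, the first of 2), and NF-kB in the window of St3gal6 (chr16:58523427-58523676, minus strand, the second of 2).
St6gal1: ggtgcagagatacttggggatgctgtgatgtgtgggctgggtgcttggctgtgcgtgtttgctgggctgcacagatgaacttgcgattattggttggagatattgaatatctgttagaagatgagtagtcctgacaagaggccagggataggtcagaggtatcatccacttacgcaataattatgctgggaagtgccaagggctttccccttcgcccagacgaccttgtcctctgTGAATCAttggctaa
Gcnt4: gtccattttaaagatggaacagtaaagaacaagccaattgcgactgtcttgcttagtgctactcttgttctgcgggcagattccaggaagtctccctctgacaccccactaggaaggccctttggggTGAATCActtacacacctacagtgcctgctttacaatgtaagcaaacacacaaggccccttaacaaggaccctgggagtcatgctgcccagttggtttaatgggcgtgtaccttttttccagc
St3gal6: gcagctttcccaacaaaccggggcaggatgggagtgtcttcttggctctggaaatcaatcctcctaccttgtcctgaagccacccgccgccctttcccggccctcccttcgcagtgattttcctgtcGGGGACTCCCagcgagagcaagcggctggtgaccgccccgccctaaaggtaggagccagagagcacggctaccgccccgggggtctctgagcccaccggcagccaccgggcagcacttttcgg
The AP-1 letters, TGAATCA in both, begin 15 bases before the start in St6gal1, which rose, and 123 bases before it in Gcnt4, which fell. The NF-kB letters lie 123 bases before the start of St3gal6, which fell.

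Genes that supply or share the pathway were read from lists, each by its counts beside the 15.0% and 11.7% of all named probe sets. The enzymes and transporters that make activated sugars and carry them into the Golgi fell in 13 of 27 cases, rose in 1 and did not pass in 13, with a median change of -0.37. The galactose mutarotase Galm (-2.89), the GDP-fucose enzyme Gmds (-1.65), the UDP-GlcNAc transporter Slc35a3 (-1.62) and the phosphomannomutase Pmm2 (-1.05) fell (limma, adjusted p at most 0.000583). The member that rose, named after its value was seen, was Uap1l1 (0.82), and 2 rose without KO replicate 1. GDP-fucose, which Gmds helps to make, is the donor for Fut2 and the other fucosyltransferases. Fut2 was higher and Gmds lower in the same arrays, and a link between them was not tested.

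Related transferases outside the symbol rule fell more often than they rose. Of 21 measured, 7 fell, 1 rose and 13 did not pass, with 2 higher without KO replicate 3 or WT replicate 4. St6galnac2, which sialylates O-glycan cores, fell by 2.90, with KO arrays between 6.14 and 9.43 and WT arrays between 10.13 and 10.47 (limma, adjusted p = 0.00104). The N-glycan branching enzymes Mgat4a (-1.64) and Mgat5 (-1.33) fell, and Pofut2 (0.75), which fucosylates thrombospondin repeats, rose (limma, adjusted p at most 0.00154). Among sulfotransferases and the makers of their donor, 5 of 18 fell, 1 rose and 12 did not pass. The donor enzymes Papss2 (-3.49) and Papss1 (-1.14) and the sulfatide synthase Gal3st1 (-1.10) fell, and the GalNAc sulfotransferase Chst8 (1.07) rose (limma, adjusted p at most 0.00243).

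Genes listed as carriers of O-glycans changed in both directions. Of 16 measured, 4 rose, 3 fell and 9 did not pass. The membrane mucin Muc1 rose by 6.94 and Muc20 by 4.46. The membrane protein Prom1, which was on the list but is not a mucin, rose by 1.82. The secreted mucin Muc2 (-2.82), the membrane mucin Muc13 (-3.27) and the brush border protein Cdhr5 (-3.44) fell (limma, adjusted p at most 0.00452 for these 6). Muc4 did not pass, with a change of 0.47 that was 0.28 with KO replicate 1 and 0.24 with KO replicate 2 left out. Of 14 genes listed for the breakdown of glycans, glycosidases apart from the sugar kinase Nagk, 3 rose, 2 fell and 9, Nagk among them, did not pass. The ganglioside sialidase Neu3 (-1.73) and the fucosidase Fuca1 (-0.86) fell, and Glb1l (1.53) and the O-GlcNAcase Oga (0.49) rose (limma, adjusted p at most 0.00846). For Glb1l both group means were at or below the top of the negative control range. Of 17 proteins that organise transferases in the Golgi, 1 rose and 1 fell, Golgb1 (0.37) and Cog1 (-0.48), and 15 did not pass, Cog6 (-0.21) and Atp2c1 (-0.38) among them. Golgb1 lost its call with KO replicate 1, 3 or 5, or WT replicate 1, 2 or 5, left out, and Cog1 without KO replicate 2, 3 or 5 (limma, adjusted p = 0.0524 to 0.0732).

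**Figure D4:**
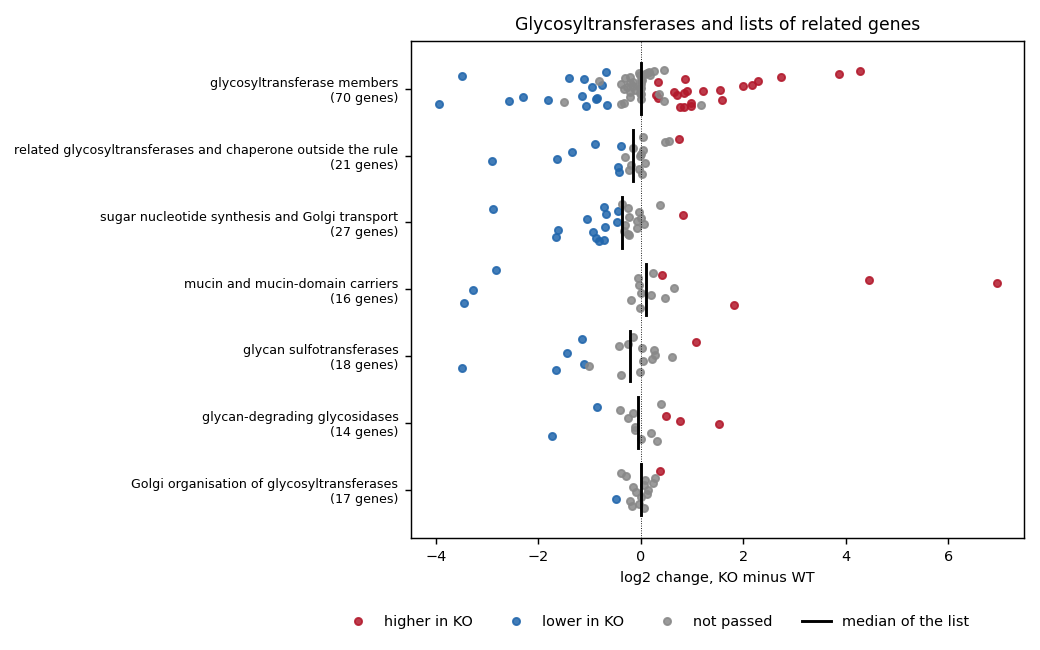
Log2 change (KO minus WT) of each measured gene in the glycosyltransferase set and in the 6 lists of related genes, 1 point per gene (red higher, blue lower, grey not passed) with a bar at each list's median; vertical scatter within a list has no meaning. The transferases spread to both sides around a median of 0.00, the sugar nucleotide genes lie mostly below 0 with a median of -0.37, and the Golgi proteins stay between -0.48 and 0.37.

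Markers of cell types differed between the same arrays. Their counts stand beside 15.0% higher and 11.7% lower among all named probe sets. General epithelial markers were high in both groups, with a mean level of the 8 genes between 10.95 and 11.30 in KO and between 11.18 and 11.37 in WT, although 3 of them rose and 3 fell. All 8 absorptive enterocyte markers fell, and their mean level was 5.27 to 5.56 in KO and 10.75 to 12.57 in WT. All 4 enteroendocrine markers and 5 of 6 Paneth markers fell, while the Paneth marker Mmp7 rose by 3.05 with no overlap (limma, adjusted p = 1.48e-06). The mean level of the Paneth markers was 5.92 to 6.19 in KO and 11.10 to 11.58 in WT. Of 10 goblet cell markers 8 fell and none rose, with a mean level of 6.68 to 9.20 in KO and 9.37 to 10.41 in WT, and 4 fell if KO replicate 1, or WT replicate 2 or 5, was omitted. The marker differences lay between the same KO and WT arrays as the changes of the transferases, and their part in them was not tested. Fewer cells of a type and less RNA per cell cannot be told apart in such samples.

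Markers of cells outside the epithelium were not all near background. The fibroblast markers Col3a1, Dcn and Lum and the endothelial markers Cdh5, Kdr, Tek and Emcn were at or below the top of the negative control range in both groups. The other fibroblast markers had higher means, with Col1a1 at 7.13 in KO and 7.18 in WT, Vim at 6.57 and 7.10, Col1a2 at 6.01 and 5.83 and Acta2 at 5.22 and 5.15, and the endothelial marker Pecam1 stood at 5.18 and 5.15. Of these lists 1 of 7 (Lum, -0.39) and 0 of 5 genes passed, with Tek nearest to passing (-0.31; limma, adjusted p = 0.0803); 2 fibroblast markers passed if replicate 1 of either group was omitted and 1 endothelial marker without WT replicate 4. Among 6 immune cell markers Cd14, at 11.12 to 11.53 in KO, Csf1r and Itgam rose, by 4.70, 1.53 and 1.56. The pan-leukocyte gene Ptprc had a change of -0.21 (limma, adjusted p = 0.232), Adgre1 of -0.19 and Cd3e of 0.15, and none of these passed. The mean level of the 6 immune markers, the high Cd14 among them, was 6.64 to 7.17 in KO and 5.15 to 5.69 in WT. Of 6 markers of mucous cells of the stomach, Tff2 rose (4.25) and Gkn3 fell (-1.62, to a KO mean below the negative control range), while Muc5ac did not pass. Gkn3 lost its call without any 1 array other than KO replicate 2 or WT replicate 4. Of 5 tuft cell markers Dclk1 rose (1.29) and Rgs13 fell (-1.28). Both group means of Rgs13 were at or below the top of the negative control range. Dclk1 did not pass if KO replicate 4 or WT replicate 2 was omitted, no tuft marker was lower if KO replicate 3, 4 or 5, or WT replicate 2 or 5, was omitted, and 2 were lower without KO replicate 1.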

How the data were processed

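The members and the gene lists were chosen with earlier results of these data known. RNA (100 ng, GeneChip WT PLUS labelling with biotin, per the labels' protocols) was measured on 1 array per sample. The authors deposited log2 levels per probe set, per the submitters' processing notes computed by RMA (limma is named there too). Versions, genome build and whether arrays were normalized jointly are not stated in those notes. Of 28846 probe sets, 19572 were paired with 1 symbol. Precision is set by having 5 arrays a group; across probe sets the within-group SD had a median of 0.20 (KO) and 0.21 (WT).

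A model of KO against WT was fitted to all probe sets in limma 3.58.1 under R 4.3.3, without a replicate block, and p-values were adjusted by Benjamini-Hochberg over the named ones (threshold 0.05). Where a gene of another list had several probe sets, the one with the highest mean was used. Whether replicate numbers pair the arrays is not known here. The rule for named genes took every member, with values for each array where a member passed with a change of at least 1 and no overlap, and the 4 smallest p of each pathway list with Muc1, Muc2, Muc13, Muc4 and the check genes. Marker genes, Dcbld2, Poc1b and Slc26a10 were named after their values were seen, and the promoter motifs were also chosen then. Promoter sequences are RefSeq's (GRCm38.p6). Alternatives changed normalization, filter, variance model, weights, block, adjustment, probe set choice, null and arrays. The limma step was tested on simulated data: of genes changed by 0.5, 1, 2 and 4 on the log2 scale, 38%, 82%, 98% and 100% were recovered (KO against WT, 200 changed genes among 19572 probe sets). Of 164 calls 5 were false. The simulated noise was independent between probe sets, and far fewer genes changed than the 26.7% of named probe sets that passed here. These shares are therefore not the power in these data. Tables and figures used Python 3.11.15, pandas 2.3.3, numpy 2.4.6, scipy 1.17.1 and matplotlib 3.10.9.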

Additional observations from a re-analysis of the deposited data

Results flagged for a closer look

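6 levels lay far from the other 4 of their group, by a gap past Dixon's 95% critical value, among 140 groups examined; chance alone flags about 1 in 20 groups. B3gnt6 was at 4.96 in KO replicate 5, with the others at 4.53 to 4.61. C1galt1 was at 9.59 in KO replicate 4, with the others at 9.14 to 9.21. Fut4 was at 6.73 in WT replicate 1, with the others at 5.04 to 5.34. WT replicate 4 held 2 such levels, with B4galnt3 at 8.56 against 7.42 to 7.69 and Fut1 at 5.65 against 6.14 to 6.31. B4galt2 was at 6.72 in WT replicate 5, with the others at 6.41 to 6.49.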

How the results depend on the processing

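Of the 36 calls among the members, 24 (13 higher, 11 lower) were kept in all 21 alternative settings that were run, and no called change turned its direction. Against a change of 1.2-fold with limma's treat, 13 members were higher in place of 21. Without 1 array at a time, 14 to 18 were higher, 13 to 17 lower and 28 to 33 did not overlap. With the replicate number as a block, 17 were higher and 15 lower: the block ended the calls of B4galt7, C1galt1, Galnt10 and St8sia6. Over probe sets, the deviations of same-numbered arrays had correlations of -0.10 to 0.30. KO replicates 3 and 4 correlated best with the WT array of their own number, and KO replicates 1, 2 and 5 with another. These correlations cannot decide if the numbers pair the arrays, because each number stands for a single array of a group. Without KO replicate 2 and WT replicate 4 together, St8sia6 changed by 1.28 (limma, adjusted p = 0.109) and B4galt5 by -0.68 (limma, adjusted p = 0.116). Array weights called 21 higher and 19 lower. Dim levels limit sizes: 3 members had only their KO mean, and 3 only their WT mean, at or below the top of the negative control range.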
